A study of Mus musculus with 4 samples.

Results

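The regions described here are places in the mouse genome where chromatin pulled down with antibodies against Ldb1, Tal1 and Gata2 was rich in all 3, with Ldb1 tags especially dense. They were chosen by tag number in bins of 500 bp on chromosomes 1 to 19. A bin was kept with at least 20 Ldb1, 14 Tal1 and 11 Gata2 tags and at most 3 tags of the control IgG, and kept bins that touched were joined. Of 4299458 bins with a tag in any library, 993 were kept, which is 0.0231%, and they formed 926 regions. Taken alone, the Ldb1 minimum was reached by 0.0534% of bins, the Tal1 minimum by 0.651% and the Gata2 minimum by 0.358%. The IgG limit was met by 98.6% of bins, and 0.00742% of bins reached 11 IgG tags. These shares follow from the choice of minimums.

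The chromatin came from freshly isolated mouse bone marrow from which cells carrying markers of mature blood lineages (Lin+) had been removed with magnetic beads, leaving a Lin- fraction enriched for progenitor cells. Their crosslinked, sonicated chromatin was immunoprecipitated with anti-Ldb1, anti-Scl/Tal1, anti-Gata2 or IgG and sequenced, 1 library each, in a series on what Ldb1 does in haematopoietic stem cells. The sources used here give no strain, age, sex or genotype of the animals, and the Lin- fraction is a mixture of cell types. With 1 library per antibody there is no replicate, so no p-value is given, and intervals are 95% exact intervals that cover counting error only.

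Ldb1 does not bind DNA itself. It self-associates and is tethered to DNA through LIM-only proteins such as Lmo2, which join it to Tal1 and GATA factors. Tal1 is a basic helix-loop-helix protein that recognises E-box motifs together with an E protein partner, and Gata2 is a zinc finger protein that recognises GATA motifs. Complexes of this kind are known from blood stem cells and from the erythroid lineage, where Ldb1 can bring distant enhancers to promoters.

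After counting 1 tag per position and strand, chromosomes 1 to 19 held 3866477 Ldb1, 8701045 Tal1, 5785973 Gata2 and 3401045 IgG tags. A mean bin had 0.899 Ldb1, 2.02 Tal1, 1.35 Gata2 and 0.791 IgG tags. Levels below are tags in a region's fullest bin, or their fold over that mean bin. Positions are in mouse build mm8. No gene, exon or intron is assigned to them, because no mm8 annotation or genome was used here, and for the same reason no sequence is printed.

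Ldb1 and Tal1 stood far above the genome mean in these regions, and Gata2 less so. The Ldb1 count was between 20 and 225 tags with a median of 32, which is 35.6-fold over the mean bin. Tal1 had between 15 and 350 tags with a median of 100, or 49.4-fold. Gata2 had between 11 and 289 tags with a median of 19, or 14.1-fold. IgG had 0 tags in 424 regions, 1 in 296, 2 in 156 and 3 in 50, and the exact interval of a count of 0 reaches up to 3.69 tags. Over all bins of the regions, the mean IgG level was 1.01 times that of the genome (0.937 to 1.08), a value bounded by the limit of 3 tags in the rule. The regions are 0.0231% of the covered bins and held 1.16% of all Ldb1 tags, 1.23% of Tal1 tags and 0.466% of Gata2 tags, but 0.0232% of IgG tags.

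Relative to its own genome mean, Tal1 was the highest of the 3 factors in 483 regions, Ldb1 in 415 and Gata2 in 28. Gata2 was the lowest in 798 of the 926 regions, or 86.2%. The minimum of Ldb1 was itself 22.2-fold over its mean bin, that of Tal1 6.92-fold and that of Gata2 8.17-fold, which puts Ldb1 high by construction. The Tal1 minimum hardly bound: of 2045 bins with at least 20 Ldb1 tags and at most 3 IgG tags, 2035 had at least 14 Tal1 tags, and 993 of these had at least 11 Gata2 tags. Among strong Ldb1 bins within the IgG limit, it was thus mostly the Gata2 minimum that decided which were kept. Without the IgG limit, 1216 bins met the minimums of all 3 factors.

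**Figure D1:**
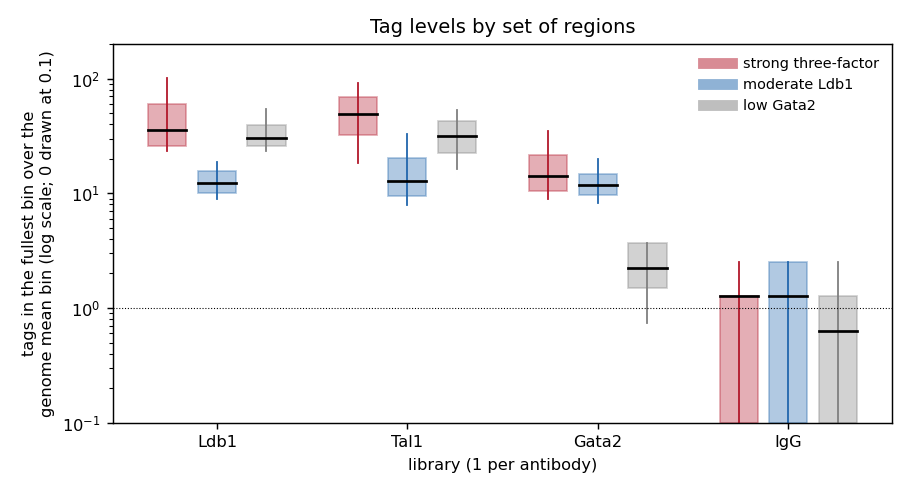
Tags in the fullest bin of a region over the genome mean bin (log scale, 0 drawn at 0.1) for each library, in the strong regions, in regions of moderate Ldb1 and in strong Ldb1 regions low in Gata2. Black bars are medians, boxes the 25th to 75th and lines the 10th to 90th percentiles over regions. The strong regions have medians of 35.6 (Ldb1), 49.4 (Tal1) and 14.1 (Gata2). The rules that define the sets bear on every box, but for Tal1 they set only the same minimum in each.

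At the Ldb1 minimum, 71 bins had exactly 20 Ldb1 tags and medians of 46 Tal1 and 16 Gata2 tags, and 76 bins just outside, with 19 Ldb1 tags, had medians of 38 and 17.5. At the Gata2 minimum, 86 bins with 11 Gata2 tags had medians of 28 Ldb1 and 74 Tal1 tags, and 89 bins with 10 Gata2 tags had medians of 29 Ldb1 and 80 Tal1 tags. No kept bin had exactly 14 Tal1 tags, and 3 bins missed the rule with 13. At the IgG limit, 50 bins had 3 tags and 21 bins had 4. The edges of the set therefore cut through a continuous range for Ldb1 and Gata2.

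For comparison, 2 further sets were formed with the same IgG limit. Regions of moderate Ldb1 had 8 to 19 Ldb1 tags with the same Tal1 and Gata2 minimums, and there were 2815 of them. No distance from the strong regions was required, so a moderate bin can touch a strong region. Regions low in Gata2 kept the Ldb1 and Tal1 minimums with at most 5 Gata2 tags, and there were 452. The median Tal1 count was 26 in the moderate set and 64 in the low Gata2 set, against 100 in the strong regions. The rules set only minimums for Tal1 in each.

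Within the 926 regions, tag numbers of Tal1 correlated more with those of Ldb1 than tag numbers of Gata2 did. Across regions, log2 tag numbers of Ldb1 correlated with those of Tal1 at 0.684 (rank correlation 0.713) and with those of Gata2 at 0.241 (rank correlation 0.206). The value between Tal1 and Gata2 was 0.351 (rank correlation 0.353). With IgG, after adding 1 tag, the values lay between -0.0673 and 0.0515. These are descriptions over regions that share 4 libraries and were cut at minimum counts. The cut lay closer to the Gata2 counts (minimum 11, median 19) than to the Tal1 counts (minimum 14, median 100). Gata2 also had fewer tags and so more counting error. The part of either in the lower Gata2 values was not tested. In the 232 regions with fewest Ldb1 tags (20 to 23), the median was 55 Tal1 and 17 Gata2 tags. In the 231 with most (55 to 225), it was 162 Tal1 and 24 Gata2 tags. The mean IgG count went from 0.901 in the former to 0.762 in the latter.

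**Figure D2:**
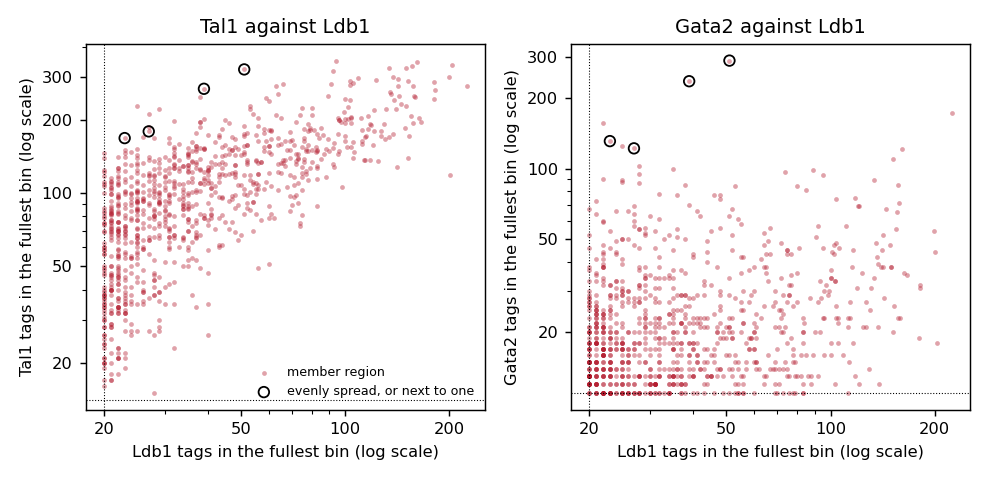
Tal1 (left) and Gata2 (right) against Ldb1 tags in the fullest bin of each of the 926 regions, all axes logarithmic, with dotted lines at the minimums of the rule. Tal1 climbs with Ldb1 (rank correlation 0.713) while Gata2 is widely scattered at every Ldb1 level (rank correlation 0.206). The minimum of the rule lies closer to the Gata2 counts than to the Tal1 counts. Circles mark 3 regions with evenly spread tags and 1 beside the longest of them.

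The ratio of tags in a region varied more for Gata2 than for Tal1. The Tal1 to Ldb1 ratio had a median of 2.43, with 10th and 90th percentiles of 1.35 and 4.35. For Gata2 to Ldb1 the median was 0.571, with percentiles of 0.238 and 1.31. The rule bounds these counts from below. Gata2 counts were smaller than Tal1 counts (medians 19 and 100) and carry more counting error, whose part was not tested. At the low end of Gata2, a region of chromosome 10 from 43298001 to 43298500 had 138 Ldb1 and 240 Tal1 but 12 Gata2 tags, and 0 IgG tags. Next to it in rank, a region of chromosome 15 from 38488001 to 38488500 had 203 Ldb1, 336 Tal1 and 18 Gata2 tags, with 0 for IgG. It was among the 3 highest for both Ldb1 and Tal1, while its Gata2 count was near the median of the regions (19). At the other end, a region of chromosome 4 from 116976001 to 116976500 had the highest ratio of all, 7.14, with 157 Gata2, 97 Tal1 and 22 Ldb1 tags and 2 for IgG.

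For Tal1 the extremes were a region of chromosome 1 from 88355501 to 88356000, with 227 Tal1 to 25 Ldb1 tags (a ratio of 9.08), and one of chromosome 11 from 83780501 to 83781000, with 15 Tal1 to 28 Ldb1 tags (0.536). Gata2 had 14 tags in the former and 13 in the latter. A region of chromosome 5 from 149207501 to 149208000 was second highest, with 211 Tal1, 27 Ldb1 and 16 Gata2 tags. The second lowest, on chromosome 8 from 125195501 to 125196000, was one of the densest Ldb1 regions: 201 Ldb1 tags (95% exact interval 174 to 231), 118 Tal1 tags (97.7 to 141), 44 Gata2 tags and 0 IgG tags. In this region Ldb1 tags outnumbered Tal1 tags although the Tal1 library was the deeper one.

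The enriched stretches were narrow and the 3 factors peaked at nearly the same base pairs. Of the 926 regions, 866 were a lone bin of 500 bp, 57 had 2 bins, 2 had 3 bins and 1 had 7. Of the 1849 bins that touched a region, 37.9% reached the Tal1 minimum, 11.8% that of Gata2 and 3.19% that of Ldb1, with medians of 10 Tal1, 4 Gata2 and 3 Ldb1 tags. Summits, the positions with most tags within 50 bp, were searched in each region and 500 bp on either side. The Tal1 summit lay a median of 18 bp from the Ldb1 summit, and within 100 bp in 846 regions, or 91.4% (89.4 to 93.1). The Gata2 summit lay a median of 27 bp from Ldb1 and within 100 bp in 83.3% (80.7 to 85.6). Between Tal1 and Gata2 the median was 25 bp. All 3 summits fell within 100 bp of each other in 721 regions, or 77.9% (75.05 to 80.5), and within 50 bp in 573. By genome coordinate, Gata2 was higher than Ldb1 in 456 regions and lower in 457. Tal1 was higher than Ldb1 in 432 and lower in 476, and Gata2 was higher than Tal1 in 477 and lower in 430. The regions were not oriented by sequence, so these counts cannot show whether the factors keep a fixed order. In 45 regions Tal1 lay within 100 bp of Ldb1 but Gata2 more than 300 bp away, and these had few tags of Gata2 (median 14).

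Among the 926 regions, summits lay closer together where there were more Ldb1 tags. In the regions with fewest Ldb1 tags the Ldb1 and Tal1 summits were a median of 32 bp apart, and in those with most 11 bp. For Ldb1 and Gata2 these values were 42 and 18 bp. In the moderate Ldb1 regions the median was 53 bp for Ldb1 and Tal1, with 66.2% within 100 bp (64.4 to 68.0), and the Ldb1 summit there held a median of 7 tags against 21 in the strong regions. In the low Gata2 regions, whose summits held a median of 21 Ldb1 and 45.5 Tal1 tags against 21 and 62 in the strong regions, Ldb1 and Tal1 were 14 bp apart and 96.7% lay within 100 bp (94.6 to 98.1). In the strong regions as a whole the median for Ldb1 and Tal1 was 18 bp. The part of tag number in these distances was not tested.

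Around the Ldb1 summit, pooled in steps of 50 bp, Ldb1 reached 159-fold, Tal1 140-fold and Gata2 47.5-fold of its genome mean. Density was at or above 50% of that height over 100 bp in the Ldb1 profile, 200 bp in the Tal1 profile and 150 bp in the Gata2 profile. Of the Ldb1 tags within 500 bp of the Ldb1 summit, a median of 70.6% lay within 100 bp, against 66.7% for Tal1 and 58.6% for Gata2 around their own summits. Reverse-strand 5′ ends of Ldb1 tags lay 121 bp beyond forward-strand ends, those of Tal1 109 bp and those of Gata2 104 bp (difference of medians within 300 bp of the Ldb1 summit), the pattern of fragments read from both ends. For IgG it was 34 bp. Forward tags were 49.97% of Ldb1, 49.97% of Tal1 and 50.5% of Gata2 tags there, so the strands were balanced.

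**Figure D3:**
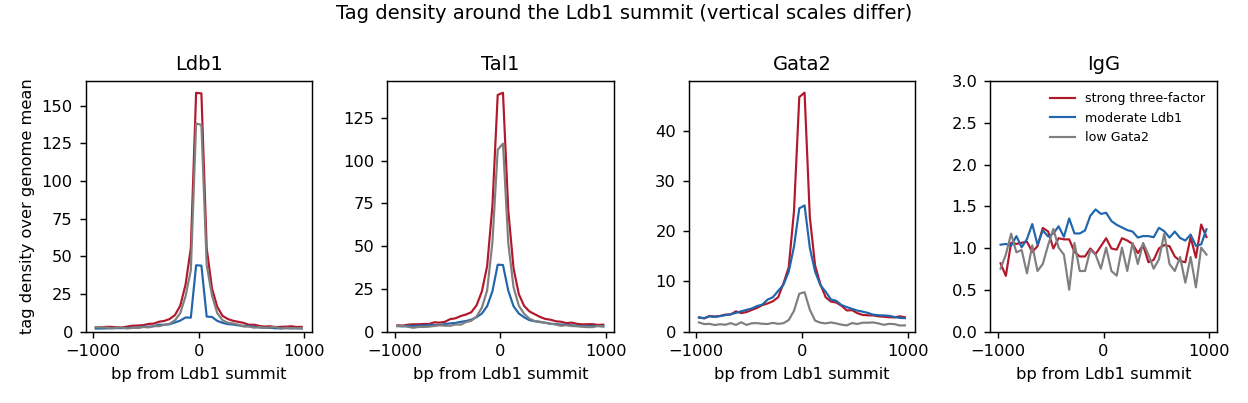
Tag density over the genome mean within 1000 bp of the Ldb1 summit, in steps of 50 bp, for each library (vertical scales differ) in the 3 sets of regions. In the strong regions Ldb1, Tal1 and Gata2 peak together at 159, 140 and 47.5 times the mean. IgG, limited by the rule inside the regions, stays near 1. The centre is chosen by Ldb1 tags, which favours the Ldb1 peak. In the low Gata2 regions Ldb1 and Tal1 peak at 138 and 110 times the mean, and in the moderate ones at 44.1 and 39.2 times.

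Tags beside the regions, which the rule did not use, were also above the genome mean for the 3 factors and not for IgG. From 1 to 2 kb outside the region edges, with bins of any of the 3 sets left out, Ldb1 was at 1.81 times the mean (1.77 to 1.86), Tal1 at 2.46 (2.42 to 2.49) and Gata2 at 1.86 (1.82 to 1.90). IgG was at 0.910 (0.875 to 0.945). From 5 to 25 kb, Ldb1 was at 1.43, Tal1 at 1.66, Gata2 at 1.44 and IgG at 0.906. In the pooled bins farthest out, the 3 factors were thus still above the genome mean. Bins rich in Tal1 or Gata2 but outside the 3 sets stayed in this pool, and their part was not tested.

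The sets also differed beside the regions. At 1 to 2 kb, Ldb1 was 1.14 times as dense beside strong as beside moderate Ldb1 regions (1.11 to 1.17). The ratio was 1.12 for Tal1 (1.10 to 1.14) and 1.03 for Gata2 (1.002 to 1.05). IgG was 0.898 times as dense (0.859 to 0.939). Compared with the low Gata2 regions, Gata2 was 1.33 times as dense (1.28 to 1.38) and Tal1 1.11 times (1.08 to 1.14). For Ldb1 and IgG the ratios were 0.972 (0.930 to 1.02) and 1.03 (0.960 to 1.10), whose intervals include 1. Farther out, from 2 to 5 kb, Ldb1 was 1.22 times as dense beside strong as beside moderate regions (1.1997 to 1.24). Gata2 was 1.204 times as dense there as beside the low Gata2 regions (1.18 to 1.23), and IgG 1.08 times (1.04 to 1.13). Beside the strong regions themselves, Ldb1 was at 1.60 times the mean for those with fewest Ldb1 tags (1.51 to 1.69) and at 2.25 for those with most (2.15 to 2.36). Tal1 went from 2.23 (2.16 to 2.30) to 2.75 (2.67 to 2.83), and Gata2 from 1.72 (1.65 to 1.80) to 1.90 (1.83 to 1.98) with its highest value, 1.96, in the second group. IgG went from 0.935 (0.866 to 1.01) to 0.838 (0.771 to 0.908). Between the first and the last group the intervals of IgG overlapped and those of the 3 factors did not. Neighbouring groups were less distinct for Ldb1, whose second group (1.55 to 1.73) overlapped the first, and IgG was highest in the second group, at 1.01 (0.938 to 1.09).

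**Figure D4:**
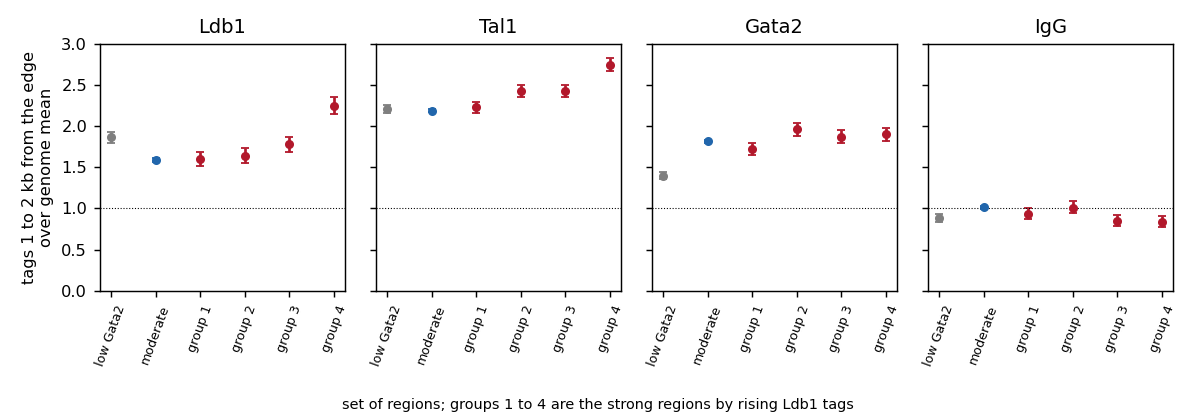
Tags from 1 to 2 kb outside the regions over the genome mean, with 95% exact Poisson intervals of the count, for the low Gata2 set, the moderate Ldb1 set and the strong regions in 4 groups of rising Ldb1 tags. Ldb1 goes from 1.60 to 2.25 and Tal1 from 2.23 to 2.75 from the first to the last group, and IgG lies between 0.838 and 1.01 in the 4 groups.

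Repeated tags of the 3 factors, which the rule dropped, were more frequent in the regions than outside all 3 sets. They made up 44.6% of the deposited Ldb1 tags there (44.2 to 44.9) and 32.8% outside all 3 sets. For Tal1 the shares were 39.8% (39.5 to 39.999) and 17.9%, and for Gata2 23.9% (23.4 to 24.3) and 14.05%. IgG had 28.6% (25.9 to 31.3) in the regions and 30.1% elsewhere. The moderate Ldb1 and low Gata2 sets had shares of 34.99% and 41.6% for Ldb1 and of 23.8% and 31.8% for Tal1. For Gata2 their shares were 17.5% and 15.8%, and for IgG 25.2% and 28.6%. For the 3 factors, each of these lay between the share in the regions and that outside all 3 sets. PCR copies and separate fragments with the same ends cannot be told apart here. Counting repeats as deposited gave 2074 regions, which took in 862 of the 926. Tags without a mismatch were 78.3% of Ldb1 tags in the regions and 74.9% elsewhere, 91.2% and 90.9% for Tal1, and 94.8% and 95.2% for Gata2.

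The 10 regions that exceeded all 3 minimums by the largest factor were led by one on chromosome 1 from 182687001 to 182688000. Its fullest bin had 225 Ldb1 tags (197 to 256), 274 Tal1 tags (243 to 308) and 172 Gata2 tags (147 to 200), with 1 IgG tag. The 3 summits lay within 16 bp of each other. It was the densest of all 926 regions in Ldb1, and 2 regions had more Gata2 tags.

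The second, on chromosome 14 from 53660001 to 53660500, had 161 Ldb1, 346 Tal1 and 121 Gata2 tags and 1 IgG tag. A region of chromosome 8 from 125605501 to 125607000 followed and was 1 of 2 regions with 3 bins. It had 157 Ldb1, 193 Tal1 and 85 Gata2 tags and 3 IgG tags, and its Tal1 summit lay 635 bp from that of Ldb1 while Gata2 and Ldb1 were 1 bp apart. In the other, on chromosome 11 from 58979501 to 58981000, Ldb1 (55 tags) and Tal1 (173 tags) were 11 bp apart and Gata2 (25 tags) peaked 822 bp away. Joined bins could thus hold summits of different factors at different places. In the 60 joined regions the fullest bin was the same for all 3 factors in 43.

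Of the remaining 7, 1 lay on chromosome 18 from 50153501 to 50154000, with 152 Ldb1, 288 Tal1 and 110 Gata2 tags and all summits within 3 bp. On chromosome 2 there were 2, from 172678001 to 172678500 and from 165579501 to 165580500, with 134 and 145 Ldb1 tags and 89 and 67 Gata2 tags. On chromosome 8 there were 2 neighbours, from 123256001 to 123256500 and from 123257501 to 123258500, with 120 and 158 Ldb1, 157 and 251 Tal1, and 69 and 71 Gata2 tags. The others lay on chromosome 15 from 103086501 to 103087000 and on chromosome 11 from 95172501 to 95173500, with 121 and 156 Ldb1, 219 and 332 Tal1, and 69 and 65 Gata2 tags. IgG had between 0 and 2 tags in each of these 7. By Tal1 alone the densest region was on chromosome 1 from 36864001 to 36865000, with 350 Tal1 tags (314 to 389) against 94 Ldb1 and 28 Gata2 tags.

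In 3 regions the tags were spread evenly instead of peaking, and another lay beside the longest of them. The longest, on chromosome 1 from 24566001 to 24569500, had 31 to 51 Ldb1, 219 to 322 Tal1 and 209 to 289 Gata2 tags in each of its 7 bins and 2 IgG tags in all. Only 21.5% of the Tal1 tags around its Tal1 summit lay within 100 bp, against the median of 66.7%. A region 500 bp further on, from 24570001 to 24570500, had 27 Ldb1, 179 Tal1 and 122 Gata2 tags. Its share of Tal1 tags near the summit, 47.3%, was above the 10th percentile of the regions (44.5%), and it is counted with them for its place. Regions of chromosome 2 from 22440001 to 22441000 and of chromosome 4 from 79475001 to 79476000 had 25.05% and 31.2% of their Tal1 tags near the summit. The former held 268 Tal1, 236 Gata2 and 39 Ldb1 tags, and the latter 168, 131 and 23.

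These 4 regions were alike in the proportions of the factors. Their Tal1 to Ldb1 ratios lay between 6.49 and 6.95 and their Gata2 to Ldb1 ratios between 4.52 and 6.19, all above the 90th percentile of the regions. They were singled out after their profiles were seen. The IgG file lists 935 mitochondrial tags and the files of the 3 factors list none. Whether sequence shared with the mitochondrial genome has a part in these regions was not tested. They held 9.12% of the Gata2 tags of all 926 regions and 0.931% of the Ldb1 tags. Without them the highest Gata2 count was 172 in place of 289, and the share of repeated Gata2 tags was 20.4% in place of 23.9%. The median counts of the remaining 922 regions were 32 Ldb1, 99 Tal1 and 19 Gata2 tags.

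Most regions stood alone, and a few lay in dense stretches. Another of the 926 lay within 10 kb of 81 regions, or 8.75% (7.01 to 10.8), and within 50 kb of 196, or 21.2% (18.6 to 23.9). The shares within 50 kb were 36.7% among the 2815 moderate Ldb1 regions and 15.04% among the 452 low Gata2 regions. These follow the size of each set, so they are not compared. A moderate Ldb1 region lay within 50 kb of 48.9% of the strong regions (45.7 to 52.2). That share can include moderate bins that touch a strong region. Linking regions up to 50 kb apart left 730 alone, 73 pairs, 12 stretches of 3, 1 of 4 and 2 of 5.

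Both stretches of 5 were on chromosome 8. The first ran from 125170501 to 125208500, with 74, 130, 201, 40 and 163 Ldb1 tags in the fullest bins of its regions in order along the chromosome. Tal1 had 75, 166, 118, 35 and 204 tags there, and Gata2 97, 25, 44, 14 and 36. The region richest in Gata2 was thus not the one richest in Ldb1 or Tal1. The second ran from 125571501 to 125607000, with 40, 69, 45, 42 and 157 Ldb1 tags, 123, 163, 118, 162 and 193 Tal1 tags, and 13, 27, 54, 21 and 85 Gata2 tags. Here the last region led for all 3 factors. IgG had at most 3 tags in a bin of either. The stretch of 4, on chromosome 12 from 105426501 to 105436000, was 9500 bp long and held 69, 46, 28 and 67 Ldb1 tags, 84, 151, 44 and 129 Tal1 tags and 15, 16, 32 and 14 Gata2 tags. In this stretch the region richest in Gata2 had the fewest Ldb1 and Tal1 tags.

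By chromosome, the regions were densest on chromosome 11 and sparsest on chromosome 14. Over chromosomes 1 to 19 there were 0.431 regions per Mb of covered bins (0.403 to 0.459). Chromosome 11 had 76 regions, or 0.685 per Mb (0.540 to 0.857), and chromosome 8 had 69, or 0.607 (0.472 to 0.768). Chromosome 14 had 17, or 0.164 per Mb (0.0955 to 0.263), chromosome 13 had 0.270 (0.179 to 0.390), chromosome 3 had 0.285 (0.204 to 0.388) and chromosome 1 had 0.311 (0.234 to 0.406). The intervals of the other 13 chromosomes included 0.431. Chromosome 11 was also high in moderate Ldb1 regions, with 2.30 per Mb against 1.31 on all 19, and in mean Tal1 tags per bin, at 1.14 times the genome. Of strong and moderate regions together, the strong ones made up 24.8% on all 19 (23.4 to 26.2), 23.0% on chromosome 11 (18.5 to 27.9), 31.2% on chromosome 8 (25.2 to 37.8) and 16.0% on chromosome 14 (9.63 to 24.4). With no limit on IgG the density was 1.01 per Mb on chromosome 11 and 0.485 on all 19, and with repeated tags kept it was 1.64 and 0.965. With minimums 1.5 times as high, chromosome 11 had 0.153 per Mb (0.0892 to 0.245) against 0.156 on all 19, so it no longer stood above them. Under those minimums chromosome 8 had 0.264 (0.178 to 0.376) and chromosome 14 had 0.0675 (0.0271 to 0.139). With tags without a mismatch only, the interval of chromosome 8 (0.309 to 0.560) included the 0.334 of all 19.

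**Figure D5:**
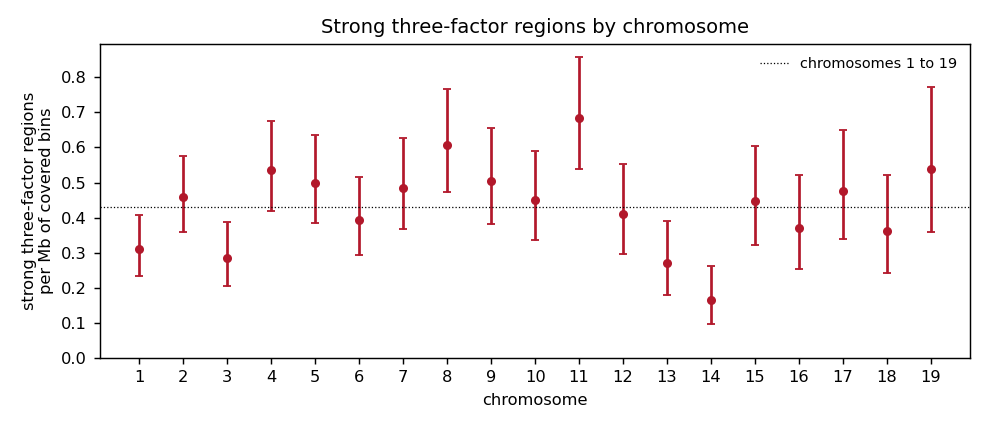
Strong regions per Mb of covered bins on each chromosome, with 95% exact Poisson intervals of the count, and a dotted line at the value of chromosomes 1 to 19 together (0.431). Chromosomes 8 and 11 lie above the line with their intervals, and chromosomes 1, 3, 13 and 14 below it.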

How the data were processed

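The deposited files list aligned tags of 4 libraries, 1 line per tag with chromosome, start, end, a descriptor, a score and strand. Per the submitters' processing notes, positions refer to mm8. The aligner is not given in the sources used here. Tags are 36 bp for Tal1 and 25 bp for the others. The score that the authors deposited is 0 for Ldb1 and IgG and an unnamed number for Tal1 and Gata2, and was not used. The other deposited values, start and end positions, were counted as tags. One tag was kept per position and strand, and 5′ ends were moved 54 bp along their strand before counting in 500 bp bins. The flanking bins and the genome mean were taken over bins with a tag in any library. Poisson and binomial (Clopper-Pearson) intervals and conditional binomial intervals of ratios are 95% exact intervals for counting error. The members, compared sets and lists were chosen with earlier results of these data known. Regions named in the text were the 10 with the largest lowest-of-3 ratio of count to minimum, the 3 with most tags for each factor, the 3 with most bins, and the 2 at each end of the Gata2 to Ldb1 and Tal1 to Ldb1 ratios. No mm8 genome or annotation was used, so the planned motif and gene counts were left out. Dense stretches and evenly spread regions were named afterwards. The steps were tested on simulated data with Python 3.11.15, NumPy 2.4.6, pandas 2.3.3 and SciPy 1.17.1.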

Additional observations from a re-analysis of the deposited data

Results flagged for a closer look

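Chromosome X was outside the rule, and its tags entered no comparison. Applied there, the same minimums gave 12 regions, each a lone bin, or 0.0955 per Mb of covered bins (95% exact interval 0.0493 to 0.167), against 0.431 per Mb on chromosomes 1 to 19. They had 20 to 67 Ldb1 tags (median 29), 31 to 115 Tal1 tags (median 75), 11 to 53 Gata2 tags (median 17) and at most 2 IgG tags. The mean bin of chromosome X held 0.842 times the Ldb1, 0.767 times the Tal1 and 0.808 times the Gata2 tags of the mean bin of chromosomes 1 to 19, and 1.07 times the IgG tags. IgG reached 20 tags in 7 bins of chromosome X.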

How the results depend on the processing

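Keeping repeated tags gave 2074 regions, a median Ldb1 level of 22.7-fold, Ldb1 beside the regions at 1.65 times the mean, Ldb1 and Tal1 summits 24.5 bp apart, 36.1% of regions within 50 kb of another, 1.64 regions per Mb on chromosome 11 and 43.4% repeated Ldb1 tags in the regions. Tags without a mismatch gave 705 regions, and these values became 47.2-fold, 1.97 times, 15 bp, 19.7%, 0.512 per Mb and 39.7%. With no limit on IgG there were 1042 regions, of which 25.05% lay within 50 kb, chromosome 11 had 1.01 per Mb and 53.5% of Ldb1 tags were repeated. With IgG at 0 there were 451 regions, Ldb1 beside them was at 1.92 times, 13.7% lay within 50 kb, chromosome 11 had 0.351 per Mb and 45.8% were repeated. With minimums 1.5 times as high there were 336 regions, with 60.6-fold Ldb1, 1.98 times beside them, summits 13 bp apart, 13.4% within 50 kb, 0.153 per Mb and 47.0% repeated; a stricter rule keeps fewer and denser regions by construction. All 19 chromosomes together had 0.965, 0.334, 0.485, 0.210 and 0.156 regions per Mb under these 5 settings in the same order. Thinned to the 3401045 tags of IgG, the libraries gave 847 regions with summits 21 bp apart. In that setting the minimums were lowered with depth, to 18 Ldb1, 6 Tal1 and 7 Gata2 tags. Without moving tags, Ldb1 beside the regions was at 1.88 times and summits were 45.5 bp apart. With bins starting 250 bp further on there were 957 regions, Ldb1 beside them was at 1.89 times, and 74.9% of the 926 regions were overlapped by one of the 957, so the place of the bin edges decided much of the membership. Causes of the other changes were not tested. In every one of these settings Ldb1, Tal1 and Gata2 beside the regions stayed above the genome mean, the lowest values being 1.65, 2.22 and 1.78 times, and IgG lay between 0.852 and 1.01 times. No paired analysis was possible because each antibody has 1 library.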

Other observations

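The IgG limit removed bins that were otherwise rich in the 3 factors. Of the 2297 bins with at least 20 Ldb1 tags, 252 had more than 3 IgG tags, and 223 of these met the Tal1 and Gata2 minimums. The 223 bins had medians of 33 Ldb1, 54 Tal1, 35 Gata2 and 23 IgG tags, with up to 214 IgG tags in a bin. The 993 kept bins had medians of 32 Ldb1, 98 Tal1, 19 Gata2 and 1 IgG tag.

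Gaps of 1 bin between strong regions occurred 3 times. The bin between missed the Ldb1 minimum in all 3 and the Gata2 minimum in 2.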
